A study of Mus musculus with 7 samples.

Results

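Choline kinase and the other enzymes that attach a choline or ethanolamine head group to phospholipids were examined in mouse liver, together with 1 choline carrier. The 10 genes were taken by name from the 23347 genes of the count table: *Chka*, *Chkb*, *Pcyt1a*, *Pcyt2*, *Pemt*, *Cept1*, *Chpt1*, *Etnk1*, *Etnk2* and *Slc44a1*. All 10 were found, and 9 passed the filter on low counts, the exception being *Chkb*. The set was chosen by pathway, with the log2 fold changes of the genotype comparison in these libraries already known, so the values of its genes in that comparison are given here as a description, without p-values.

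Livers of 7 male mice were sequenced, 1 library per mouse. The 4 control mice are labelled WT, and the study's methods give them as *B4galt1* flox/flox, so that the floxed allele was present in both groups. The 3 mice labelled B4galt1-HKO should, by the study's methods, carry in addition Cre driven by the albumin promoter, which is active in hepatocytes. Every mouse received the CDAHFD, a high-fat diet built from free amino acids, without choline and with little methionine by the study's methods. The labels give it as lasting 15 weeks, and the mice were on a C57BL/6 background. Chow-fed livers were not analysed here, so no value below shows the effect of removing choline from the diet or of limiting methionine.

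Phosphatidylcholine is the main phospholipid of liver membranes, bile and secreted lipoproteins. Choline that enters the cell is phosphorylated by choline kinase, activated to CDP-choline by a cytidylyl transferase and joined to diacylglycerol by a phosphotransferase. A parallel chain of a kinase, a cytidylyl transferase and a phosphotransferase turns ethanolamine into phosphatidylethanolamine, and the liver can methylate that lipid to phosphatidylcholine with PEMT. Diets that lack choline are used in mice to bring on fatty liver, since the export of triglycerides in lipoproteins needs phosphatidylcholine.

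Total counts lay between 37838654 and 39668509 in WT libraries and between 30608271 and 34586588 in B4galt1-HKO libraries. The 13 mitochondrially encoded genes took 3.88% to 7.996% of counts in WT and 14.4% to 22.6% in B4galt1-HKO libraries. *B4galt1*, the galactosyltransferase gene targeted by the cross, was at 48.7, 53.0, 49.2 and 51.6 CPM (counts divided by library size, after scaling by the trimmed mean of M values, TMM) in WT and at 28.4, 23.9 and 53.7 CPM in B4galt1-HKO livers. The groups therefore overlapped, with the library labelled B4galt1-HKO replicate 3 above every WT library, and the exact permutation test (two-sided, on group means) gave p = 0.143, against a smallest possible p of 0.0286. The fitted log2 fold changes of the head-group genes are given with and without this library, while means, sums and ratios include it. All 6 hepatocyte markers were detected, with summed levels of 73547 to 111209 CPM in WT and 90387 to 141066 CPM in B4galt1-HKO livers, and none of them passed the test. *Alb* made up most of these sums (means of 75054.5 CPM in WT and 91684.2 CPM in B4galt1-HKO livers). The others went both ways, from a log2 fold change of -0.85 for *Cps1* to 0.70 for *Apoa1*, whose groups did not overlap. Of 7 markers of Kupffer cells and macrophages, 4 were lower in B4galt1-HKO livers, and their sum was 432 to 815 CPM in WT against 264 to 312 CPM in B4galt1-HKO livers. Of 5 endothelial markers 1, *Kdr*, was lower (log2 fold change -1.33), and the sum was 64.8 to 259 CPM in WT against 85.2 to 106 CPM in B4galt1-HKO livers. WT replicate 3 gave the upper WT limit of the macrophage and the endothelial sum. *Adgre1* was at 71.3 CPM there against 20.1 to 25.6 CPM in the other WT libraries, and *Clec4g* at 90.9 against 19.9 to 28.4 CPM. Among WT libraries it also had the lowest *Chka*, *Pcyt2* and *Etnk2* and the highest *Pcyt1a*, *Etnk1* and *Slc44a1* values. No tested marker of stellate cells and fibroblasts (6), cholangiocytes (5) or lymphocytes and neutrophils (5) was called. On the first principal component, with 47.8% of the variance, B4galt1-HKO replicate 2 stood farther from the WT libraries (86.4) than the other B4galt1-HKO libraries (36.1 and 28.6), and it had the highest *Chka* and *Pcyt2* values and the lowest values of *Pcyt1a*, *Etnk2*, *Pemt*, *Chpt1*, *Etnk1* and *Slc44a1* among the 7 libraries. Without it the log2 fold change was 2.15 for *Chka*, -0.75 for *Pcyt1a* and -0.82 for *Etnk2*, all still called, and 0.73 for *Pcyt2*, not called. It was -0.31 for *Pemt* and -0.20 for *Chpt1*, which were not called with it either. The part of the mitochondrial share and of the macrophage and endothelial markers in the values below was not tested. In whole liver, fewer cells of a type and less RNA per cell cannot be told apart.

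Across all 15179 genes tested with edgeR's quasi-likelihood test, 15.8% were called different between the groups, 7.83% lower and 8.0% higher in B4galt1-HKO livers, a call being an adjusted p under 0.05 with a log2 fold change of more than 0.58 either way. Of the 9 tested head-group genes, 4 met that rule: *Chka* and *Pcyt2* were higher, and *Pcyt1a* and *Etnk2* were lower. In the same 4 genes every B4galt1-HKO library lay outside the WT range, as was the case for 28.6% of all genes tested. DESeq2 called 21.3% of the 15376 genes to which it gave an adjusted p (10.2% lower, 11.2% higher) and, among the head-group genes, the same 4. Without B4galt1-HKO replicate 3, edgeR called 13.8% of genes (7.51% lower, 6.28% higher), and *Pcyt2* was no longer among the called genes. Since the set was chosen with this comparison known, nothing is read from these counts. The median log2 fold change of the 9 genes was -0.42, and that of all genes tested was 0.02.

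**Figure D1:**
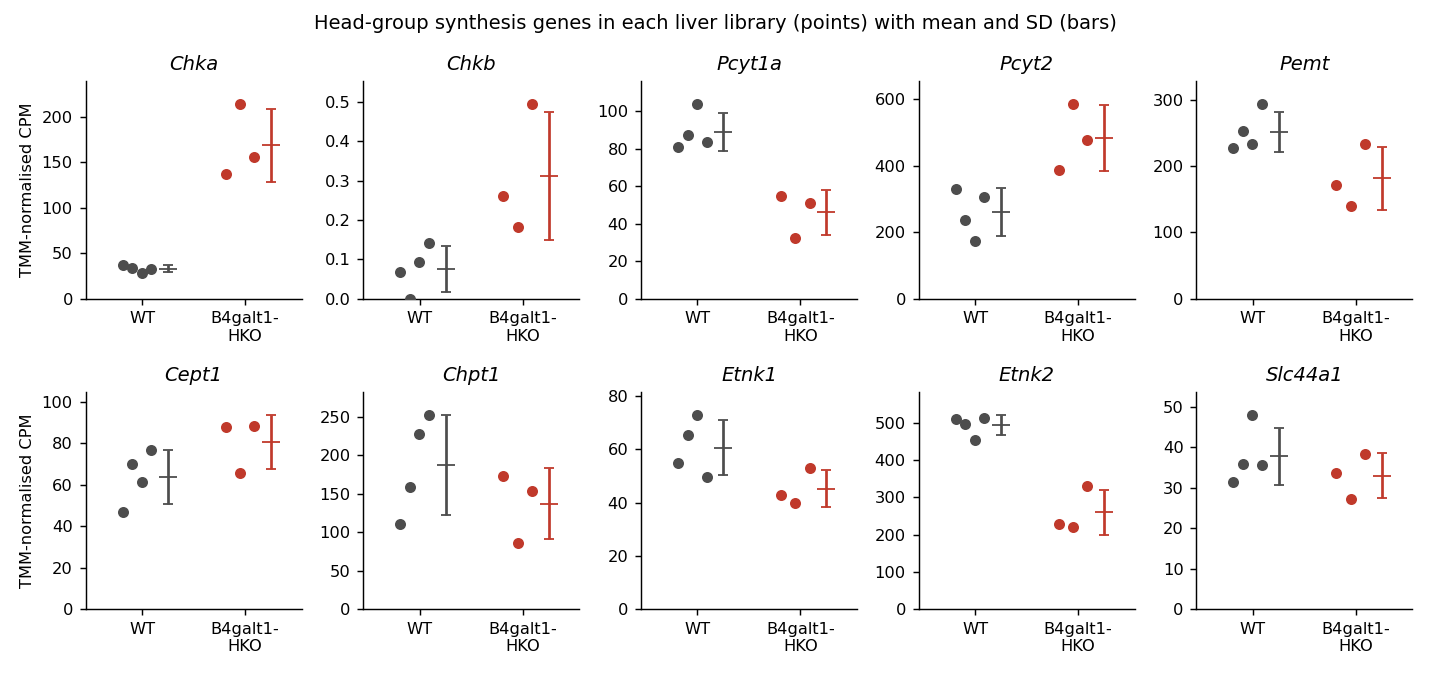
Each panel shows 1 gene, with TMM-normalised CPM on the vertical axis from 0, 1 point per liver library (grey, 4 WT; red, 3 B4galt1-HKO) and a bar for the mean ± SD. *Chka* rose from 32.9 to 168.6 CPM on average and *Pcyt1a* went from 88.8 to 46.1 CPM, while the points of *Cept1*, *Chpt1*, *Pemt*, *Etnk1* and *Slc44a1* overlapped.

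The promoters of 3 called genes are shown, because *Chka* and *Pcyt1a* encode successive steps of one route and differed in opposite directions, and *Etnk2* is the ethanolamine counterpart of *Chka* and was lower like *Pcyt1a*. Each window holds 250 bases before and 50 bases after a start site, in the direction of transcription, from RefSeq on GRCm38.p6, which is not the build named for the count table. Capitals mark exact matches on either strand to a CCAAT box (CCAAT), a GC box (GGGCGG) or a sterol element (TCACCCCAC), and runs of capitals longer than a motif are overlapping matches. *Pcyt1a* has 3 windows in the table, of which the first is shown. The windows are *Chka* chr19:3851523-3851822, *Pcyt1a* chr16:32430671-32430970 and *Etnk2* chr1:133363322-133363621, all on the + strand.
Chka: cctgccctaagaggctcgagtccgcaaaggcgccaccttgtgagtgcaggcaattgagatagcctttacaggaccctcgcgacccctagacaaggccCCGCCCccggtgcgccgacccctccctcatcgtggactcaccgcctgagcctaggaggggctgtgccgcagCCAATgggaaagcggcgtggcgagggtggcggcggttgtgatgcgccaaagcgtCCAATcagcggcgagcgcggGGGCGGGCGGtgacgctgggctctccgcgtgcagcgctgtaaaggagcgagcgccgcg
Pcyt1a: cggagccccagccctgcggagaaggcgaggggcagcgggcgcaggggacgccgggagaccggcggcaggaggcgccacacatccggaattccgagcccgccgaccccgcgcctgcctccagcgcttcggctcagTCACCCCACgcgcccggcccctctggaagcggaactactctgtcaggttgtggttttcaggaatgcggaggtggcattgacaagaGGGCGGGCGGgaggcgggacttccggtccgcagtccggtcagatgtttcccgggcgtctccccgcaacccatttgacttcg
Etnk2: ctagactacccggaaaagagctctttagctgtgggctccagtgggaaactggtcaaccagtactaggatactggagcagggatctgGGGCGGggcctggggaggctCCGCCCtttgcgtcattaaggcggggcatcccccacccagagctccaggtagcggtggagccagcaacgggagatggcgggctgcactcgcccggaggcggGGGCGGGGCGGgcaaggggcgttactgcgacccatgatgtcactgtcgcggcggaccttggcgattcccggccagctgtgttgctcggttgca
The *Chka* window held 2 CCAAT boxes, which begin at -82 and -28 from the start site, and 3 GC boxes. The *Pcyt1a* window shown held 1 sterol element, beginning at -116 from the start site, and 2 overlapping GC boxes, and the *Etnk2* window held 4 GC boxes. In the second *Pcyt1a* window, which overlaps the first, the same sterol element begins at -215, and the third holds none of the motifs searched. Among 32851 RefSeq windows of this length, 37.4% held a CCAAT box, 35.7% a GC box and 0.551% the sterol element. The shown windows were richer in G and C (68.7%, 69.7% and 65.3%) than the median window (52.7%), so the share for the GC box is not a like comparison. Among the genes not called, GC boxes also occurred in windows of *Chpt1*, *Etnk1*, *Cept1* and *Slc44a1*, and CCAAT boxes in those of *Chpt1*, *Cept1* and *Pemt*. An E-box (CACGTG, 7.15% of windows), a D-box (TTATGTAA, 0.938%), a TATA box (TATAAA, 13.6%) and the PPAR direct repeat (0.0396%) had no match in these 3 windows. A match is a run of letters and not evidence that a factor binds there. Windows were found for 9 of the 10 genes, the other being *Pcyt2*.

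The kinases of the choline route stood apart from each other, with *Chka* well counted and *Chkb* hardly counted. *Chka* encodes choline kinase alpha, which phosphorylates choline in the first step of CDP-choline synthesis. Its levels were 36.9, 33.8, 27.9 and 33.1 CPM in WT and 136.5, 213.4 and 156.0 CPM in B4galt1-HKO livers. Every B4galt1-HKO library was well above the highest WT library, and the WT libraries were close together. The means were 32.9 ± 3.71 CPM (SD, n = 4) and 168.6 ± 40.0 CPM (SD, n = 3), a 5.13-fold difference, and the fitted log2 fold change was 2.36 (SE 0.21). Only 117 of the 15179 genes tested had a larger log2 fold change. The call of *Chka* held in all 17 alternative analyses, with log2 fold changes of 1.93 to 2.48, and without B4galt1-HKO replicate 3 the value was 2.401.

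*Chkb* encodes choline kinase beta, the second choline kinase. It was close to the limit of counting, with 3, 0, 4 and 5 counts in WT and 8, 6 and 15 counts in B4galt1-HKO libraries, and was not tested. A count of 3 corresponds to 0.0690 to 0.0987 CPM in these libraries. In the RefSeq annotation the readthrough RNA *Gm44502* spans the whole of *Chkb* and of its neighbour *Cpt1b*, the muscle-type carnitine palmitoyltransferase. *Gm44502*, looked up after the values of *Chkb* were seen, had 39, 9, 10 and 18 counts in WT and 27, 80 and 68 counts in B4galt1-HKO libraries. Reads shared by these genes cannot be assigned to one of them from the table, so the level of *Chkb* is uncertain.

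*Pcyt1a* encodes the alpha form of the cytidylyl transferase that makes CDP-choline, the step usually regarded as rate-limiting. Its levels were 80.9, 87.3, 103.6 and 83.6 CPM in WT and 54.9, 32.4 and 51.0 CPM in B4galt1-HKO livers. The highest B4galt1-HKO library was below the lowest WT library. The means were 88.8 ± 10.2 CPM (SD, n = 4) and 46.1 ± 12.05 CPM (SD, n = 3), and the log2 fold change was -0.95 (SE 0.22). It was called in all 17 alternative analyses, within -1.11 to -0.75, and was -1.03 without B4galt1-HKO replicate 3. The kinase and the cytidylyl transferase of the same route thus differed between the groups in opposite directions.

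*Chpt1* and *Cept1* encode the phosphotransferases that join the activated head group to diacylglycerol. CHPT1 uses CDP-choline, while CEPT1 accepts both CDP-choline and CDP-ethanolamine. *Chpt1* was at 110.7, 158.9, 227.0 and 251.9 CPM in WT and at 172.4, 85.7 and 153.5 CPM in B4galt1-HKO livers. *Cept1* was at 46.7, 69.8, 61.6 and 76.9 CPM in WT and at 87.9, 65.5 and 88.3 CPM in B4galt1-HKO livers. The groups overlapped for both genes and neither was called, with log2 fold changes of -0.45 (SE 0.31) for *Chpt1* and 0.34 (SE 0.21) for *Cept1*. Without B4galt1-HKO replicate 3 they were -0.54 and 0.26, also not called. The value of *Chpt1* was -0.20 without B4galt1-HKO replicate 2 and -0.27 without WT replicate 4, and that of *Cept1* was 0.22 without WT replicate 1. *Chpt1* had the widest WT spread of the 9 tested genes, with an SD of 0.54 on the log2 scale against a median of 0.31 over all genes tested. In the RefSeq annotation *Chpt1* overlaps *Sycp3*, and *Cept1* overlaps *Dennd2d* and *Dram2*, and whether the counting used strand is not given in the sources used here.

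*Etnk2* and *Etnk1* encode the ethanolamine kinases, the first step on the ethanolamine side. *Etnk2*, the form known from liver, was at 509.3, 496.5, 453.9 and 513.2 CPM in WT and at 229.2, 221.8 and 330.0 CPM in B4galt1-HKO livers. All 3 B4galt1-HKO libraries were below the WT range. The means were 493.2 ± 27.2 CPM (SD, n = 4) and 260.4 ± 60.4 CPM (SD, n = 3), and the log2 fold change was -0.92 (SE 0.21). *Etnk2* varied little among WT livers, with an SD of 0.08 on the log2 scale, and 3.19% of genes tested varied less. Its call was lost without WT replicate 2 (-0.92) and without B4galt1-HKO replicate 1 (-0.85), and held without B4galt1-HKO replicate 3 (-1.14). *Etnk1* was at 54.7, 65.2, 72.8 and 49.7 CPM in WT and at 42.7, 39.8 and 53.0 CPM in B4galt1-HKO livers. Its groups overlapped, and it was not called at a log2 fold change of -0.42 (SE 0.20), or at -0.56 without B4galt1-HKO replicate 3.

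*Pcyt2* encodes the cytidylyl transferase that makes CDP-ethanolamine. Its levels were 328.6, 236.4, 172.0 and 305.9 CPM in WT and 388.5, 584.4 and 476.8 CPM in B4galt1-HKO livers. The groups did not overlap on this scale, although WT livers spread from 172.0 to 328.6 CPM. The means were 260.7 ± 71.0 CPM (SD, n = 4) and 483.2 ± 98.1 CPM (SD, n = 3), and the log2 fold change was 0.89 (SE 0.25). This call depended on single libraries. It was lost without WT replicate 2 (0.84), WT replicate 3 (0.73), WT replicate 4 (0.97), B4galt1-HKO replicate 2 (0.73) or B4galt1-HKO replicate 3 (0.89), and was kept without WT replicate 1 or B4galt1-HKO replicate 1. On the scale of the deposited FPKM (fragments per kilobase of gene and per total counted fragments), the lowest B4galt1-HKO value of *Pcyt2*, 182.3, was below the highest WT value, 194.9.

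*Pemt* encodes the methyltransferase that converts phosphatidylethanolamine to phosphatidylcholine, with S-adenosylmethionine as the methyl donor. It was at 226, 253, 234 and 293 CPM in WT and at 172, 139 and 233 CPM in B4galt1-HKO livers, so that B4galt1-HKO replicate 3 lay within the WT range. The log2 fold change was -0.47 (SE 0.22) and was not called. Without that library it was -0.70 (SE 0.22) and was not called either. The limma fits of log2 FPKM, which change the scale and the test together, gave -0.62 and called *Pemt* lower, and in FPKM the groups did not overlap (191.7 to 208.2 in WT and 114.4 to 155.9 in B4galt1-HKO livers). Over the genes shared with the edgeR fit, the median of the per-gene differences in log2 fold change (limma minus edgeR) was -0.12 to -0.13. *Pemt* overlaps *Gm38498* in the RefSeq annotation.

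*Slc44a1* encodes a choline transporter-like protein of the plasma and mitochondrial membranes. It was at 31.4, 35.9, 47.9 and 35.7 CPM in WT and at 33.5, 27.1 and 38.2 CPM in B4galt1-HKO livers, with overlapping groups. The log2 fold change was -0.20 (SE 0.20), -0.32 without B4galt1-HKO replicate 3, -0.07 without B4galt1-HKO replicate 2 and -0.06 without WT replicate 3, and it was not called in any alternative analysis.

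**Figure D2:**
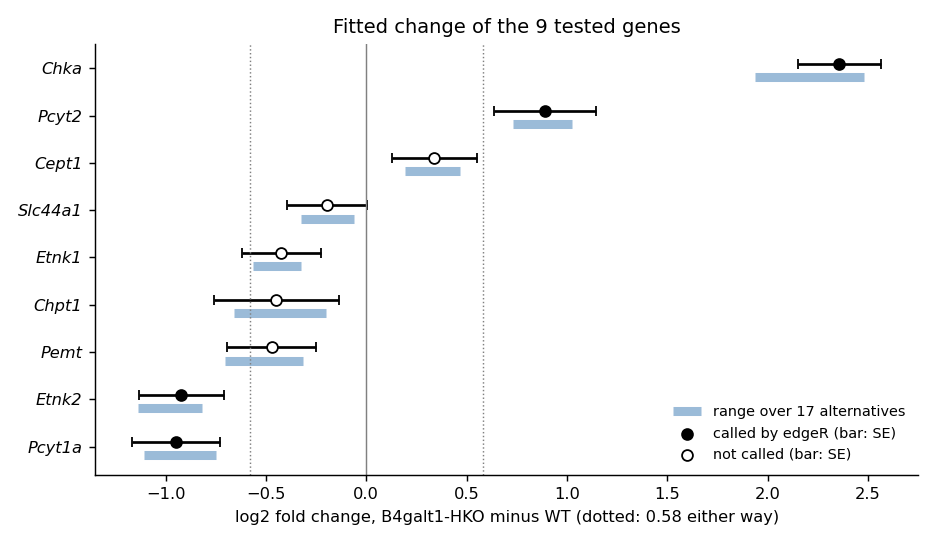
Points give the fitted log2 fold change (B4galt1-HKO minus WT) of the 9 tested genes with its SE, filled where called by edgeR, and blue bars give the range over 17 alternative analyses. Dotted lines stand at 0.58 either way; the ranges of *Chka*, *Pcyt2*, *Pcyt1a* and *Etnk2* lay outside them, and the ranges of *Pemt* and *Chpt1* each crossed one.

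To compare levels between genes, FPKM was used, since it is per length of gene. The lengths implied by the deposited values ran from 1316 bases for *Pemt* to 11067 bases for *Cept1*, and the order below depends on them. In WT livers the mean FPKM was 214.7 for *Etnk2*, 197.4 for *Pemt* and 140.8 for *Pcyt2*, followed by 28.5 for *Chpt1*, 17.8 for *Pcyt1a*, 7.43 for *Etnk1*, 5.91 for *Cept1*, 4.90 for *Slc44a1* and 3.48 for *Chka*. *Chkb* is listed last, at 0.0445, a level that is uncertain for the reason given above. The ethanolamine kinase *Etnk2* thus stood far above the choline kinase *Chka* in level. The gap was smaller in CPM (493.2 against 32.9 in WT), with implied lengths of 2388 and 9841 bases. Neighbours in this order whose WT ranges did not overlap were *Pcyt2* and *Chpt1*, *Pcyt1a* and *Etnk1*, and *Chka* and *Chkb* as listed. The ranges of the other 6 neighbouring pairs overlapped. In B4galt1-HKO livers *Pcyt2* came first in each library, at a mean of 242.9 FPKM, with *Pemt* at 129.4 and *Etnk2* at 103.0. *Chka* was 9 of 10 in all 4 WT libraries and 4 or 5 of 10 in the B4galt1-HKO libraries, where its mean was 16.7 FPKM. Of the 36 pairs of genes without *Chkb*, 26 were in the same order in all 7 libraries.

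**Figure D3:**
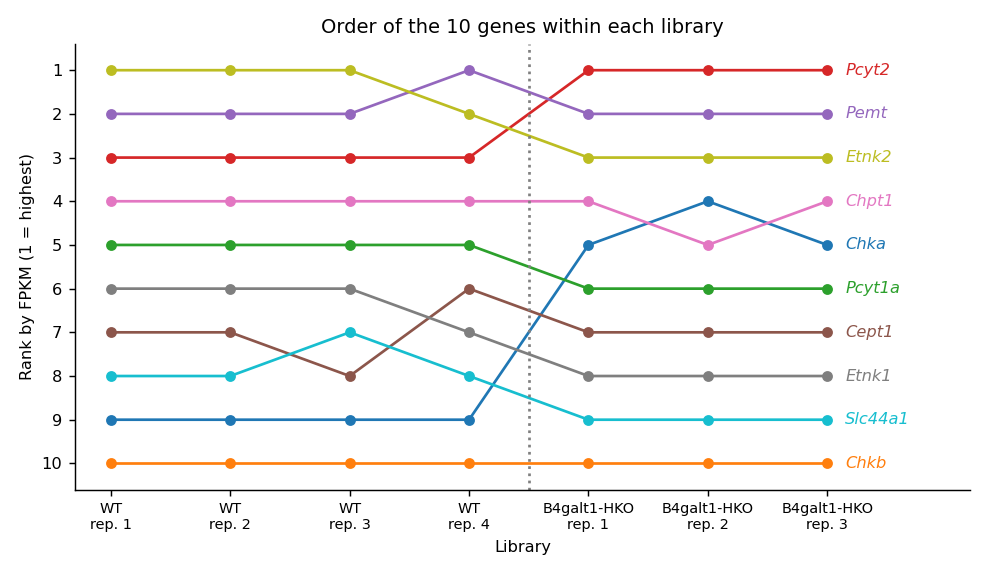
The vertical axis gives the rank of each of the 10 genes by FPKM within a library (1 is the highest), and the horizontal axis gives the 4 WT and 3 B4galt1-HKO libraries. *Chka* went from rank 9 to ranks 4 and 5 and *Pcyt2* from rank 3 to rank 1. *Chkb*, whose level is uncertain, is plotted at rank 10.

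Ratios of FPKM between genes of one library do not depend on how the library is scaled. They combine the values above and add no independent evidence. The ratio of *Chka* to *Pcyt1a*, the kinase over the cytidylyl transferase, was 0.142 to 0.241 in WT and 1.31 to 3.48 in B4galt1-HKO livers. Its mean was 10.7 times as high in the latter, where B4galt1-HKO replicate 2 was at 3.48 and the others at 1.31 and 1.62. The same library set the upper B4galt1-HKO limits of *Pcyt2* over *Etnk2* and *Pcyt2* over *Pcyt1a* below. *Pcyt2* over *Etnk2*, the same pair of steps on the ethanolamine side, was 0.470 to 0.800 in WT and 1.79 to 3.27 in B4galt1-HKO livers. At the RNA level the kinase was thus higher relative to the cytidylyl transferase on the choline side, and lower on the ethanolamine side. Enzyme levels and activity were not measured in these data, and *Pcyt2* by itself overlapped between the groups in FPKM. *Pcyt2* over *Pcyt1a*, the 2 cytidylyl transferases, was 4.48 to 10.96 in WT and 19.1 to 48.7 in B4galt1-HKO livers. *Pemt* over *Pcyt2* was 1.01 to 1.99 in WT and 0.348 to 0.716 in B4galt1-HKO livers. *Chpt1* over *Cept1* was 3.74 to 6.06 in WT and 2.15 to 3.23 in B4galt1-HKO livers, although neither gene was called by itself. *Etnk2* over *Etnk1* nearly met between the groups, at 22.24 to 36.8 in WT and 19.1 to 22.20 in B4galt1-HKO livers.

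**Figure D4:**
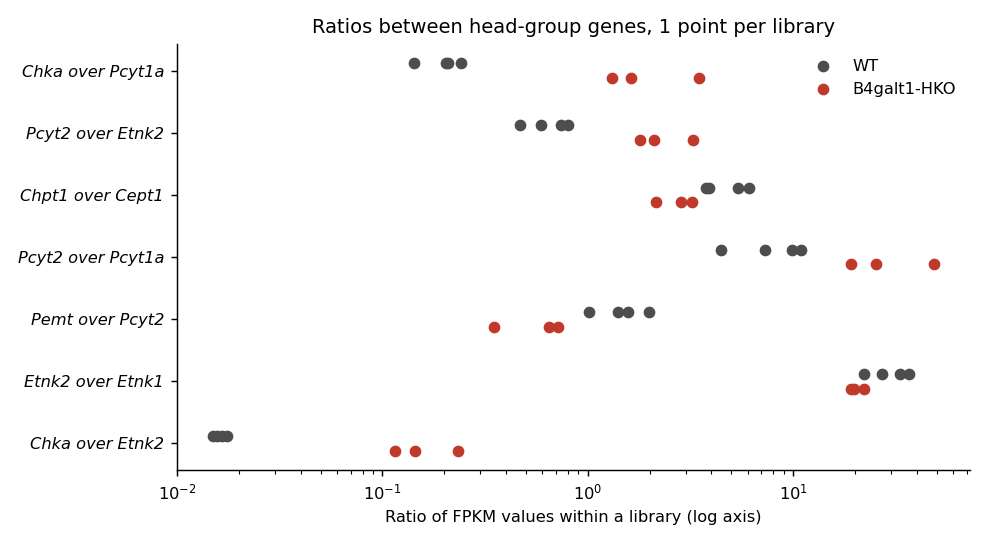
Each point is the ratio of 2 FPKM values within 1 library, on a log axis, for WT (grey) and B4galt1-HKO (red) livers. *Chka* over *Pcyt1a* was 0.142 to 0.241 in WT and 1.31 to 3.48 in B4galt1-HKO livers, and *Etnk2* over *Etnk1* came closest to overlapping.

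The 5 tested genes whose profile over the 7 libraries was most like that of *Chka* were *Cfap69*, *Mroh7*, *Car15*, *Mapk1ip1* and *Urml*. The likeness was the root mean square distance between log2 CPM profiles, each centred on its mean, and was 0.14 for *Cfap69* and 0.25 to 0.27 for the other 4. *Cfap69* was at 2.44, 2.01, 1.55 and 2.01 CPM in WT and 7.08, 14.3 and 10.99 CPM in B4galt1-HKO livers. Its groups did not overlap. *Urml* was at 79.6 ± 19.5 CPM in WT (SD, n = 4) and 405.9 ± 42.7 CPM in B4galt1-HKO livers (SD, n = 3).

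Around the 10 genes, 61 other genes of choline and phospholipid metabolism are reported in 7 groups, of which 60 were in the table and 58 were tested. Of these, 9 were lower and 2 were higher in B4galt1-HKO livers in the edgeR quasi-likelihood fit, adjusted by Benjamini-Hochberg over all genes, beside the 7.83% and 8.0% of all genes. These groups too were put together with earlier results of this comparison known, and they do not report every gene first listed, so nothing is read from the counts, and the p-values below are not independent support. Their median log2 fold change was -0.23. By group, the median was 0.21 for phosphatidylcholine breakdown and choline recapture, 0.16 for diacylglycerol supply and 0.10 for the CDP-diacylglycerol route. It was below 0 in the other groups, lowest at -0.55 for choline oxidation and methyl supply. The number called was 4 without WT replicate 2 or without B4galt1-HKO replicate 2, 5 without B4galt1-HKO replicate 1, 6 without WT replicate 4 and 16 without B4galt1-HKO replicate 3. Of the 11 called genes, 3 were called whichever library was left out, namely *Cds2*, *Slc25a48* and *Aldh7a1*.

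Among the 6 tested carriers of choline and ethanolamine reported here other than *Slc44a1*, 2 were lower. *Slc25a48*, a mitochondrial choline carrier, was at 3.98, 3.59, 4.76 and 3.56 CPM in WT and at 0.357, 1.39 and 1.32 CPM in B4galt1-HKO livers. Its groups did not overlap, and the log2 fold change was -1.96 (SE 0.45), with an edgeR adjusted p of 0.0164. The call of *Slc25a48* held in all 17 alternative analyses, but its log2 fold change ran from -2.24 to -0.93 in them. *Flvcr2*, a choline transporter, had a log2 fold change of -0.96 (SE 0.25, edgeR adjusted p = 0.0276), and its call was lost without WT replicate 2, WT replicate 4, B4galt1-HKO replicate 1 or B4galt1-HKO replicate 2. *Slc44a5* and *Slc22a2* were too low to be tested.

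Of the 12 genes of choline oxidation and methyl supply reported here, 3 were lower, and the median log2 fold change was -0.55. *Aldh7a1*, which can oxidise betaine aldehyde to betaine, was at 277.9, 273.9, 311.6 and 313.6 CPM in WT and at 123.7, 93.6 and 185.1 CPM in B4galt1-HKO livers (log2 fold change -1.13, SE 0.24, edgeR adjusted p = 0.0128). Every B4galt1-HKO library was below the WT range. *Gnmt*, which uses S-adenosylmethionine to methylate glycine, had a log2 fold change of -1.44 (SE 0.35, edgeR adjusted p = 0.0195) and was not called without B4galt1-HKO replicate 1 or without B4galt1-HKO replicate 2. *Sardh*, sarcosine dehydrogenase, had a log2 fold change of -0.73 (SE 0.21, edgeR adjusted p = 0.0400) and kept its call in 1 of 7 leave-one-out fits, the one without B4galt1-HKO replicate 3.

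Of 12 genes of phosphatidylcholine breakdown and choline recapture, 2 were lower and 2 were higher. *Gdpd3*, a lysophospholipase D, averaged 0.976 ± 0.249 CPM in WT (SD, n = 4) and 3.28 ± 1.84 CPM in B4galt1-HKO livers (SD, n = 3), with an edgeR adjusted p of 0.0225. *Pnpla6*, a phospholipase that acts on phosphatidylcholine, had a log2 fold change of 1.07 (SE 0.26, edgeR adjusted p = 0.0191). Its relative *Pnpla7*, a lysophospholipase, had a log2 fold change of -0.72 (SE 0.18, edgeR adjusted p = 0.0258). *Gpcpd1*, which splits glycerophosphocholine and so frees choline, had a log2 fold change of -0.97 (SE 0.27, edgeR adjusted p = 0.0341). Each of these 4 calls was lost when one or another library was left out: *Gdpd3* in 3, *Pnpla6* in 2, *Pnpla7* in 4 and *Gpcpd1* in 5 of the 7 fits, in every case including those without WT replicate 2 and without B4galt1-HKO replicate 2.

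Of 7 genes of the CDP-diacylglycerol route, which leads to phosphatidylinositol and cardiolipin, 1 was lower: *Cds2*, which makes CDP-diacylglycerol, was at 76.9, 69.0, 90.8 and 62.1 CPM in WT and at 30.7, 36.5 and 46.3 CPM in B4galt1-HKO livers (log2 fold change -0.98, SE 0.21, edgeR adjusted p = 0.0128). Of 8 genes of diacylglycerol supply, 1 was lower: *Dgat2*, which makes triglyceride from diacylglycerol, had a log2 fold change of -0.81 (SE 0.21, edgeR adjusted p = 0.0266), and it kept its call in 2 of 7 leave-one-out fits, those without WT replicate 1 and without B4galt1-HKO replicate 3. None of 8 genes of phosphatidylserine synthesis, decarboxylation and second-copy head-group enzymes was called, the largest log2 fold change being that of the decarboxylase *Pisd* (-0.65, SE 0.22, edgeR adjusted p = 0.0661). None of 5 genes of phosphatidylcholine transfer and export was called, the largest being that of the transfer protein *Pctp* (-0.41, SE 0.20, edgeR adjusted p = 0.179).

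**Figure D5:**
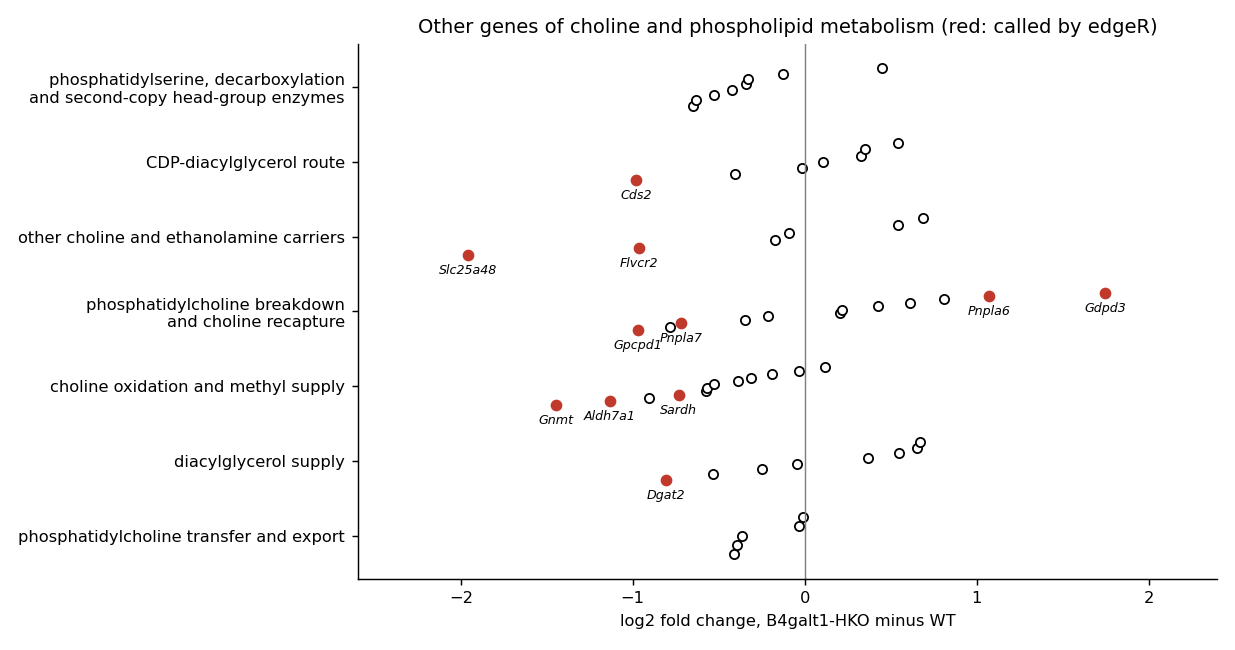
Each point is the log2 fold change (B4galt1-HKO minus WT) of 1 of the 58 tested genes of the 7 groups named on the vertical axis, red and named where called by edgeR. The 9 genes called lower include 2 carriers, and the 2 called higher are *Gdpd3* and *Pnpla6*.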

How the data were processed

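RNA from 7 mouse livers (4 WT, 3 B4galt1-HKO) was analysed. The authors deposited unnormalized counts per gene (whole numbers) and FPKM, which the authors had scaled by gene length and library total. Libraries were made with a VAHTS Universal V6 kit. The submitters' processing notes name fastp, HISAT2, HTSeq, DESeq2, R 3.2.0 and GRCm39. The study's methods give DESeq2 for differential expression and R for enrichment analysis, and the roles of the others are not given in the sources used here. Whether counting used strand is not given in the sources used here.

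Groups came from the sample labels, and nothing says that equal replicate numbers mark related mice. Genes were filtered by filterByExpr (minimum count 10, minimum total count 15), scaled by TMM and fitted over all 7 libraries, with group as the term, by the quasi-likelihood method of edgeR 4.0.16 (R 4.3.3), with Benjamini-Hochberg adjustment over 15179 genes. A call was an adjusted p under 0.05 with an absolute log2 fold change over 0.58. SEs were computed from the F statistic. Alternatives were DESeq2 1.42.0, limma 3.58.1 on log2 FPKM (pseudocount 1 or 0.1), other scalings and filters, a replicate block, and leaving out each library. The edgeR, DESeq2 and limma steps were tested on simulated counts. The floor of 3 counts covers counting error only.

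The genes and lists were chosen with earlier results of these data known, and some genes of the lists are not reported here. Named were the 10 genes, *B4galt1*, up to 4 called genes per list (or the gene with the largest change where none was called) and the 5 genes most like *Chka*. *Gm44502* and the genes that overlap the 10 in RefSeq were added after values were seen.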

Additional observations from a re-analysis of the deposited data

How the results depend on the processing

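No fitted log2 fold change of a tested head-group gene or of *B4galt1* changed sign under the alternatives run. *Chka* and *Pcyt1a* were called in all 17 alternatives, *Etnk2* in 14 and *Pcyt2* in 10, and *Pemt* was called in the 3 limma fits alone. With 4 and 3 mice, the count of calls rested on single libraries. Genes called numbered 2404 in the main analysis, 3281 with DESeq2, 1330 with limma on log2(FPKM + 1) without a filter, and 885 (without WT replicate 2) to 2396 (without WT replicate 1) when a library was left out. Of the calls, 50.5% were higher in the main analysis and 18.2% to 24.5% in the limma fits of FPKM. In those fits the median of the per-gene differences in log2 fold change from the main fit was -0.12 to -0.13. Head-group genes called numbered 4, and 2 to 4 when a library was left out. Other pathway genes called numbered 11, 18 in both limma fits with a filter, and 4 to 16 when a library was left out. The log2 fold change of *B4galt1* was -0.52 (not called), was called at -0.67 and -0.73 in the filtered limma fits with pseudocounts of 1 and 0.1, was not called at -0.67 in the limma fit without a filter, and ran from -0.96 (called, without B4galt1-HKO replicate 3) to -0.30 when a library was left out. The cause of these shifts was not tested.

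With the replicate number as a block in the 6 libraries whose number occurs in both groups, 1225 genes, 2 head-group genes (*Chka* and *Pcyt1a*) and 6 other pathway genes were called, against 1552 genes and 3 head-group genes in the same 6 libraries without the block, which is the analysis without WT replicate 4. The labels show only that the mice share a number, and the study's methods name littermate controls without saying which mice were littermates. The deviations of same-numbered libraries from their group means correlated at -0.34, -0.03 and 0.08. B4galt1-HKO replicate 1 correlated best with WT replicate 3 and B4galt1-HKO replicate 2 with WT replicate 1. Only B4galt1-HKO replicate 3 correlated best with its own number.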
